A study of Mus musculus with 7 samples.

Results

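The miR-34 family was followed in a panel of quantitative PCR assays for mouse microRNAs (miRNAs). Members were chosen by assay name: every assay beginning miR-34a, miR-34b or miR-34c that was not a star strand, the arm of a hairpin once thought to be the minor product. This gave 3 of the 517 mouse miRNA assays, miR-34a, miR-34b-3p and miR-34c, measured in all 7 samples. The family's star strand assay, miR-34c*, and the 3 assays of the related miR-449 family are described beside them.

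The samples were 3 cultures of M1 macrophages and 4 aortas, each called a biological replicate in the labels. The macrophages were grown for 7 days from femoral bone marrow of female C57BL/6 mice aged 6 to 8 weeks, in medium with L929-conditioned supernatant. They were brought to the inflammatory M1 state by 14 hours of LPS (bacterial lipopolysaccharide) at 100 ng/ml and 6 hours of interferon-γ at 10 ng/ml. The aortas were control tissue without treatment, from female mice of the same age, with the strain label apoE-/-, a line that lacks apolipoprotein E. The series title calls the aortic tissue normal, so the strain of the aortas is uncertain. Strain, culture, stimulation and sample type cannot be told apart, since each group differs from the other in all of them. No macrophages without stimulation were measured here.

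The miR-34 genes are among the best known targets of the tumour suppressor p53, which binds near them and switches on their transcription after DNA damage. Their products lower proteins that drive the cell cycle and survival, such as CDK6, MET and BCL2. miR-34a is made in many tissues and is known in the vessel wall from work on ageing and senescent cells, where it lowers the deacetylase SIRT1. miR-34b and miR-34c come from a shared transcript and are most abundant in testis and in epithelia with motile cilia, as is the miR-449 family.

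The sequences show which assays read the shared seed, the bases that pair with target mRNAs, and which read the opposite arm. Seeds (bases 2 to 8) are in capitals, and sequences and positions are RefSeq's on GRCm38.p6. Of the 7 miR-34 and miR-449 assays, 5 matched a mature sequence, and miR-34c and miR-449b are named only. miR-34a-5p lies on the plus strand at chr4:150068473-150068494. miR-34b-5p, which has no assay of its own among those analysed, and miR-34b-3p lie on the minus strand at chr9:51103610-51103632 and chr9:51103574-51103595. miR-34c-3p, the miR-34c* assay, lies on the minus strand at chr9:51103044-51103065. miR-449a-5p and miR-449c-5p lie on the plus strand at chr13:113037549-113037570 and chr13:113036008-113036028.
miR-34a-5p: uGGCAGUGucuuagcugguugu
miR-34b-5p: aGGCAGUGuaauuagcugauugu
miR-449a-5p: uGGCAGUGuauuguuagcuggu
miR-449c-5p: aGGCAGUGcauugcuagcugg
miR-34b-3p: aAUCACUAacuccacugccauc
miR-34c-3p: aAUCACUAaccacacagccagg

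The first 4 share one seed, which these 4 alone carry among the 1679 mature miRNA names of the table used, so the count covers the matched names only. The last 2 share another seed, carried by those 2 names alone. The miR-34b-3p assay therefore reads an arm without the family's common seed. miR-34b-3p and miR-34c-3p are identical at 17 of 22 positions and over their first 10 bases. Counted from the 5′ end of miR-34b-3p, the substitutions in miR-34c-3p are U11C, C12A, U16A, U21G and C22G. The longest run of bases that miR-34a-5p shares is 8 with miR-34b-5p, 9 with miR-449a-5p and 7 with miR-449c-5p. Assays for such similar RNAs can pick up each other's targets, and their specificity was not tested.

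The hairpins below carry the measured arm in capitals, to show that miR-34a is read from the 5′ arm and miR-34b-3p from the 3′ arm. The Mir34a hairpin lies at chr4:150068454-150068555 and overlaps no other gene of the RefSeq table, with Gm13067 and Gpr157 as its neighbours. The Mir34b hairpin, at chr9:51103562-51103645, is 451 bases from the Mir34c hairpin at chr9:51103034-51103110. Both lie within the spans of the genes Hoatz and Btg4.
Mir34a: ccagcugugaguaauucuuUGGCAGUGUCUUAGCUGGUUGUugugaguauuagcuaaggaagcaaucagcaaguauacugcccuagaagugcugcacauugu
Mir34b: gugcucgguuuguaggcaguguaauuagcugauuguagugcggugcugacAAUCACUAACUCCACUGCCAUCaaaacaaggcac

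Values are given as the cycle threshold (Ct), the PCR cycle at which a well crossed its detection threshold, and a lower Ct means more RNA. They are also given as a scaled level: the average Ct of 296 miRNAs that every sample detected, taken within the sample, minus the Ct of the miRNA itself. Folds take a cycle as a doubling of product, so that scaled levels are on a log2 scale. This doubling was not measured. A well at Ct 35 or earlier counted as detected. The macrophage samples gave less signal: 326 to 366 miRNAs were detected in each, against 416 to 454 in each aorta, and their mean Ct over the 296 miRNAs was 25.4 to 27.8, against 22.6 to 24.7 in the aortas. In macrophages the 3 smooth muscle markers and both endothelial markers were lower, and all 3 myeloid markers were higher. Over all 429 miRNAs tested, 30.8% were lower and 24.7% higher at an adjusted p under 0.05 in limma. The lymphocyte miRNA miR-150, at -6.67, and the red blood cell miRNAs miR-451 and miR-486, at -10.39 and -5.80 on the log2 scale, were also lower in macrophages. No macrophage sample had miR-486 or the smooth muscle marker miR-133a detected, so the differences of these 2 rest on wells set to Ct 35. The myeloid markers were detected in all 4 aortas. The mean level over the 3 of them, taken within each sample, was 7.13 to 7.88 in macrophages and 1.84 to 2.78 in aortas. The part of these cell types in the results below was not tested. In samples of whole tissue, a lower level from fewer cells of a type and one from less RNA per cell cannot be told apart.

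miR-34a was higher in M1 macrophages than in aortas. Its Ct was 21.3, 21.2 and 23.1 in macrophage replicates 1 to 3, and 23.0, 24.99, 23.0 and 24.6 in aorta replicates 1 to 4. Macrophage replicate 3 overlapped with the aortas. The macrophage samples ran late as a whole: over the 429 miRNAs tested, 16.3% had an earlier mean Ct in macrophages than in aortas, and 3.03% were earlier there without overlap. Scaled to the miRNA mean, miR-34a stood at 4.07, 4.25 and 4.70 in macrophages, against 0.49, -0.29, -0.34 and -1.13 in aortas. The groups did not overlap on this scale, as was the case for 58.7% of the miRNAs tested, 27.3% with macrophages on the higher side and 31.5% with macrophages on the lower.

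The mean scaled level of miR-34a was 4.34 ± 0.33 (SD, n = 3) in macrophages and -0.31 ± 0.66 (SD, n = 4) in aortas. The difference was 4.65 ± 0.48 SE on the log2 scale, or 25.2-fold (95% interval 11.5 to 54.99), with an adjusted p of 0.000187 in limma across all miRNAs. In this comparison 24.7% of the miRNAs tested were higher and 30.8% lower in macrophages, so being called is common here. With its sign kept, the miR-34a difference ranked 28 from the highest among the 429. Many differences in the other direction were larger in size, as miR-203, at -5.21, ranked 61 from the lowest. Its size depended on the scaling: 5.33-fold with snoRNA135 and snoRNA202, small nucleolar RNAs used as references (adjusted p = 0.00905), and 12.7-fold with the authors' deposited values (adjusted p = 0.0041). With snoRNA429, an alternative chosen after the data were seen, it was 26.1-fold (adjusted p = 0.000112). These reference RNAs themselves did not keep 1 level: on the scaled level, macrophages minus aortas was 3.15 for snoRNA135, 1.33 for snoRNA202 and -0.05 for snoRNA429. With no scaling the Ct difference of 2.01 cycles missed the threshold (adjusted p = 0.0934).

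**Figure D1:**
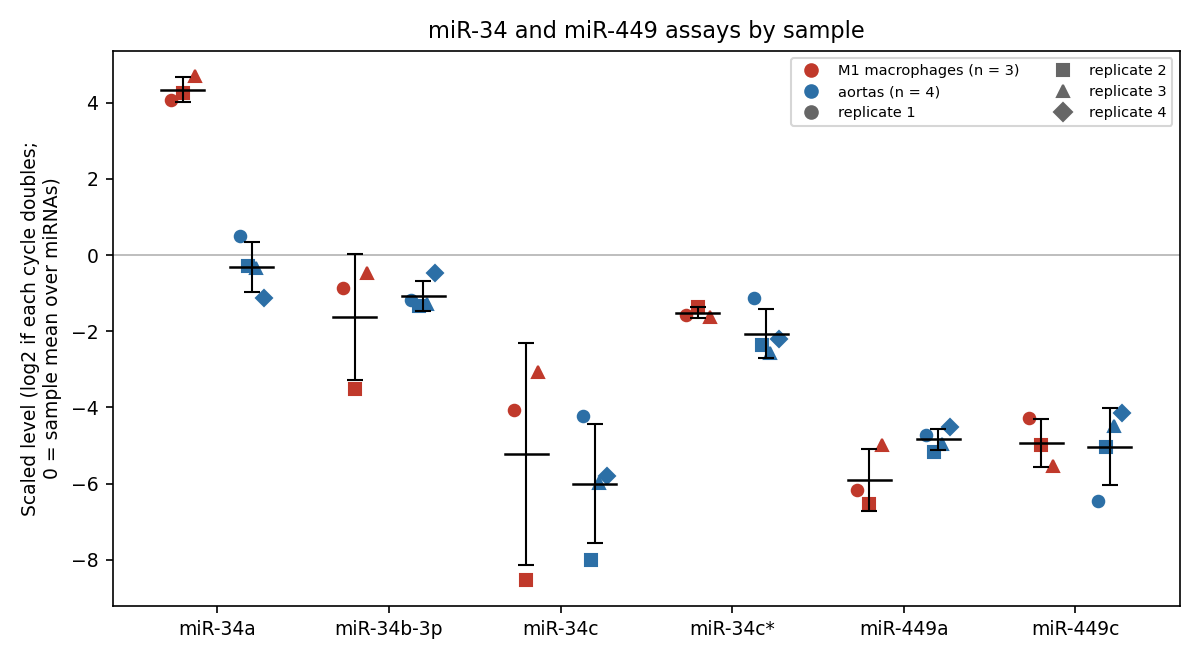
Scaled level (log2 scale, 0 being the sample's mean over miRNAs) of 6 miR-34 and miR-449 assays in 3 macrophage samples (red) and 4 aortas (blue). Marker shapes give the replicate, black lines the mean and bars the SD; the miR-34a macrophage values, 4.07 to 4.70, lie above every aorta, and the groups overlap for the other assays shown.

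miR-34b-3p did not differ detectably between the groups. It crossed at Ct 26.3, 29.0 and 28.2 in macrophages, against 24.7, 26.0, 23.9 and 23.9 in aortas. On the scaled level this gave -0.87, -3.52 and -0.47 in macrophages, and -1.17, -1.33, -1.30 and -0.48 in aortas. Macrophage replicate 2 was lowest of all samples, and the other macrophage values lay among or near those of the aortas.

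Mean scaled levels of miR-34b-3p were -1.62 ± 1.66 (SD, n = 3) in macrophages and -1.07 ± 0.40 (SD, n = 4) in aortas. The difference of -0.56 ± 0.77 SE had a 95% interval of -2.36 to 1.25 and an adjusted p of 0.578 (limma). An interval this wide leaves differences of several-fold undetected. Leaving out macrophage replicate 2 moved it to 0.42. With scaling to the snoRNA pair miR-34b-3p was lower in macrophages, at -2.80 (adjusted p = 0.0145), as it was with no scaling, at -3.20 (adjusted p = 0.0206). The same 2 settings put the median of all miRNAs tested at -2.45 and -2.85, and 53.8% and 48.3% of the miRNAs tested were lower under them.

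miR-34c, the neighbour of miR-34b on chromosome 9, was the latest and most variable member. It crossed at Ct 29.5, 34.0 and 30.8 in macrophages and at 27.7, 32.7, 28.6 and 29.2 in aortas, so replicate 2 of each group came close to the limit of 35. Scaled levels were -4.08, -8.54 and -3.07 in macrophages, against -4.22, -8.02, -5.97 and -5.79 in aortas. Macrophage replicates 1 and 3 lay above every aorta and macrophage replicate 2 below every aorta, so the overlap of the groups rests on that late well.

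Averages for miR-34c were -5.23 ± 2.91 (SD, n = 3) in macrophages and -6.00 ± 1.56 (SD, n = 4) in aortas. The difference was 0.77 ± 1.44 SE (95% interval -2.60 to 4.14, limma adjusted p = 0.673). Without macrophage replicate 2 it was 2.45 (adjusted p = 0.102), without aorta replicate 2 it was 0.07, and without both, a setting chosen after the data were seen, 1.75 (adjusted p = 0.115). Without macrophage replicate 1 or 3 it was 0.19 or -0.21, and without aorta replicate 1 it was 1.36. With quantile normalization it was 2.59 (adjusted p = 0.0666).

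The members differed in how far replicates lay apart. Among the 296 miRNAs detected everywhere, the median SD was 0.56 in macrophages and 0.57 in aortas. miR-34c had a larger SD than 99.0% of them in macrophages and 91.6% in aortas. For miR-34b-3p these shares were 90.9% and 30.4%, and for miR-34a 26.7% and 57.4%. Over 35 pairs of repeated wells of control RNAs, differences reached 3.22 cycles, with a median of 0.46.

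The star strand of the miR-34c hairpin, which shares its seed with miR-34b-3p, was steadier than the main strand. miR-34c* crossed at Ct 27.0, 26.8 and 29.4 in macrophages and at 24.6, 27.1, 25.2 and 25.6 in aortas. Its scaled level was -1.56, -1.35 and -1.62 in macrophages and -1.13, -2.36, -2.57 and -2.21 in aortas, where replicate 1 lay above every macrophage sample. The difference of 0.56 ± 0.46 SE did not pass (95% interval -0.52 to 1.63, limma adjusted p = 0.346). It was -1.68 with the snoRNA pair (adjusted p = 0.036) and 1.23 with quantile normalization (adjusted p = 0.0308), so its direction depended on the scaling.

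Whether the members changed unequally was tested within samples, where the scaling cancels. In each sample the Ct of one assay was taken from that of the other, so that a higher value stands for more of the first miRNA. The difference miR-34a minus miR-34b-3p was 4.94, 7.77 and 5.18 cycles in macrophages, against 1.66, 1.04, 0.96 and -0.65 cycles in aortas. The groups stood apart, as was the case for 80.4% of miRNAs set against miR-34a in this way, and the mean was 5.21 cycles higher in macrophages.

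For miR-34a minus miR-34c the values were 8.14, 12.8 and 7.78 cycles in macrophages and 4.71, 7.73, 5.63 and 4.67 cycles in aortas. The lowest macrophage sample was just above the highest aorta, and the mean was 3.89 cycles higher in macrophages. The neighbours miR-34b-3p and miR-34c gave 3.20, 5.02 and 2.60 cycles in macrophages and 3.05, 6.69, 4.68 and 5.31 cycles in aortas, and here the groups overlapped.

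An exact permutation test of the 7 samples (2-sided, 35 arrangements) cannot go below p = 0.0571. It gave 0.0571 for each miR-34a pair and 0.286 for miR-34b-3p minus miR-34c, or 0.0857, 0.0857 and 0.286 after Benjamini-Hochberg adjustment over the 3 pairs. The same differences were also fitted in limma across all miRNAs with miR-34a as the scale, a setting chosen after the data were seen. miR-34a minus miR-34b-3p was then higher in macrophages by 5.21 ± 0.88 SE, or 37.0-fold (95% interval 9.18 to 149, adjusted p = 0.000567). miR-34a minus miR-34c was higher by 3.89 ± 1.31 SE, or 14.8-fold (95% interval 1.86 to 118, adjusted p = 0.0215). Leaving out macrophage replicate 2 brought that difference to 2.28. Relative to miR-34a, 81.3% of the other miRNAs tested were lower in macrophages and 0.234% were higher, so both members share this direction with most of the panel. miR-34b-3p minus miR-34c, fitted with miR-34b-3p as the scale, was -1.33 ± 1.15 SE (95% interval -3.77 to 1.12, adjusted p = 0.384). Relative to miR-34b-3p, 17.5% of miRNAs were higher and 19.6% lower in macrophages.

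**Figure D2:**
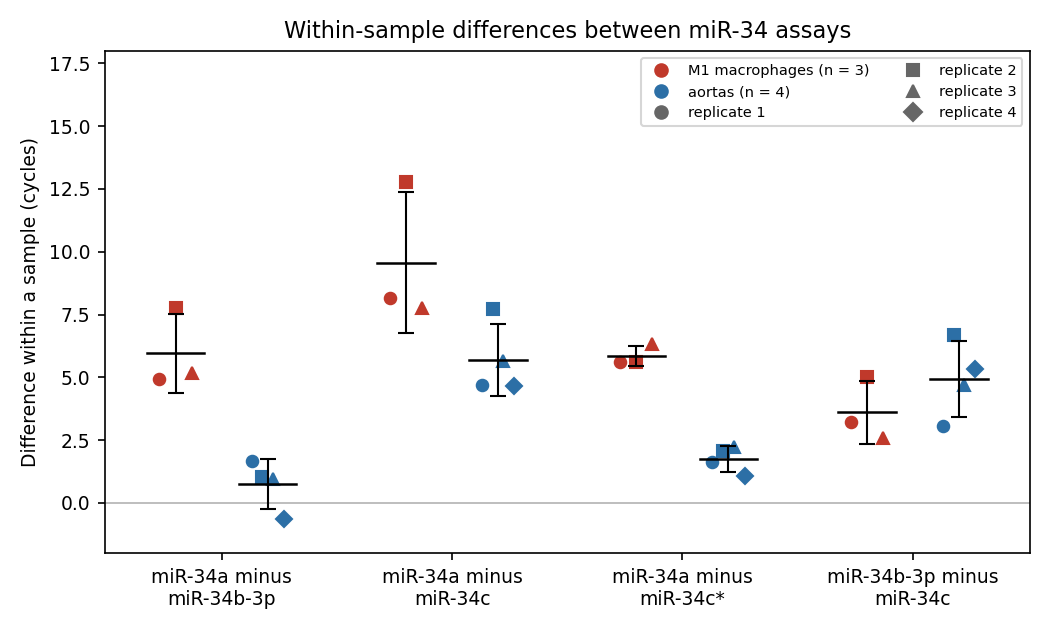
Difference in cycles between 2 miR-34 assays within each sample, for 3 macrophage samples (red) and 4 aortas (blue), with the mean (line) and SD (bar); a higher value stands for more of the first miRNA. The groups do not overlap in the 3 comparisons with miR-34a and overlap for miR-34b-3p minus miR-34c.

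The miR-449 family, which carries the miR-34a seed, gave no called difference with scaling to the miRNA mean. miR-449a crossed at Ct 31.6, 31.98 and 32.7 in macrophages and at 28.2, 29.9, 27.6 and 27.9 in aortas. Its scaled level averaged -5.90 ± 0.81 (SD, n = 3) in macrophages and -4.84 ± 0.28 (SD, n = 4) in aortas, a difference of -1.06 ± 0.48 SE (limma adjusted p = 0.102). It was lower in macrophages with the authors' deposited values, at -2.05 (adjusted p = 0.031), with the snoRNA pair, at -3.30 (adjusted p = 0.001), with no scaling, at -3.70 (adjusted p = 0.00571), and without macrophage replicate 3, at -1.42 (adjusted p = 0.0198).

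miR-449c averaged -4.93 ± 0.63 (SD, n = 3) in macrophages and -5.03 ± 1.01 (SD, n = 4) in aortas, a difference of 0.11 ± 0.65 SE (limma adjusted p = 0.892). It passed with the snoRNA pair, at -2.13 (adjusted p = 0.0163). miR-449b was detected in 1 macrophage sample and 3 aortas, and its difference of 0.58 rests on wells set to the limit. Relative to miR-34a, miR-449a was lower in macrophages: miR-34a minus miR-449a was 5.71 ± 0.65 SE higher there (adjusted p = 4.44e-05). For miR-34a minus miR-449c the value was 4.55 ± 0.96 SE (adjusted p = 0.00199), and for miR-34a minus miR-34c* it was 4.10 ± 0.57 SE (adjusted p = 0.000168), all in limma scaled to miR-34a. For miR-34a minus miR-449b it was 4.07 ± 1.78 SE and missed the threshold (adjusted p = 0.0594). Relative to miR-34a, 81.3% of the other miRNAs tested were lower in macrophages, so these comparisons share the direction of most of the panel. Of the 5 measured members of the seed family (miR-34a, miR-34c and the 3 miR-449 assays), 1 was higher, none was lower and 4 missed the threshold, against 24.7% higher and 30.8% lower over all miRNAs tested. Their median difference was 0.58, against -0.21 over all miRNAs tested. With the snoRNA pair 2 were lower, against 53.8% of all tested, and with the deposited values 1, against 36.1%. In both settings miR-34a alone was higher, against 7.46% and 12.4% of all tested. With no scaling 1 was lower, against 48.3%, and none was higher, against 2.33%. The counts of lower members are near or below the panel's shares, and the only higher member is miR-34a.

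**Figure D3:**
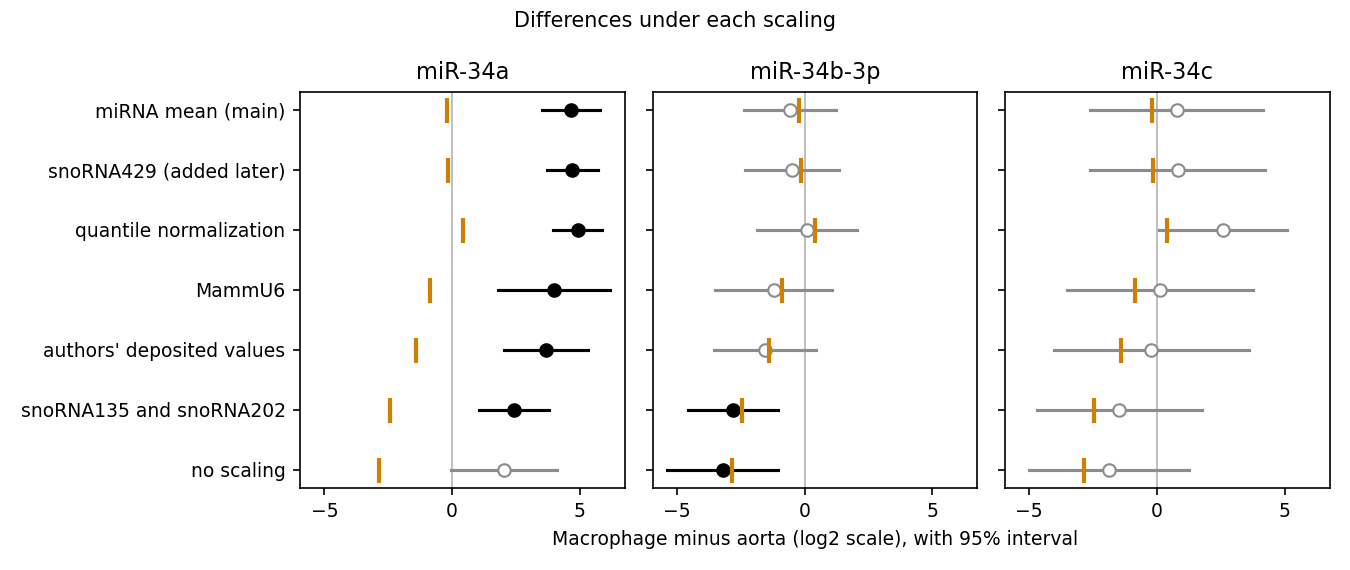
Macrophage minus aorta difference of each member on the log2 scale (point) with its 95% interval (line) under 7 ways of scaling. Filled points passed the threshold and orange ticks mark the median of all miRNAs tested; miR-34a lies 4.51 to 5.06 above that tick, and miR-34b-3p lies 0.15 to 0.35 below it.

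Scaling to reference RNAs shifts all miRNAs by the same amount, so a member's distance from the panel's median is the same with any of them. miR-34a lay 4.86 above the median of all miRNAs tested with the miRNA mean, the snoRNA pair, MammU6 or no scaling. The gap was 5.06 with the authors' deposited values, in which late wells are not set to 35, and 4.51 with quantile normalization. For miR-34b-3p the gap was -0.35 with the miRNA mean, -0.15 with the deposited values and -0.31 with quantile normalization. For miR-34c it was 0.98 with the miRNA mean and 2.18 with quantile normalization.

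**Figure D4:**
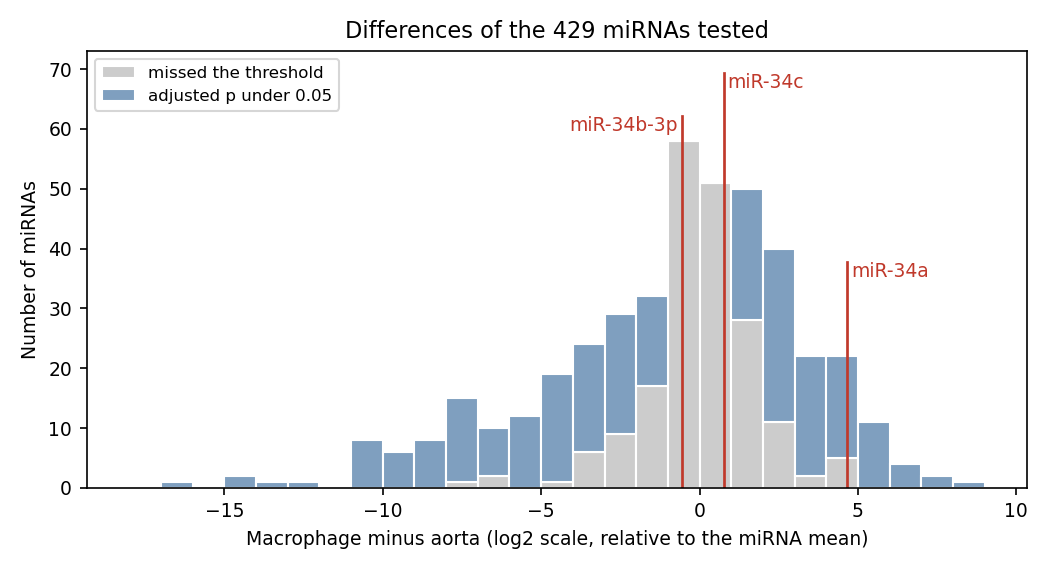
Number of miRNAs (vertical axis) by macrophage minus aorta difference on the log2 scale (horizontal axis) for the 429 tested, with those past the threshold in blue and the rest in grey. Red lines mark miR-34b-3p at -0.56 and miR-34c at 0.77 in the middle of the distribution and miR-34a at 4.65 in its upper part.

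Other miRNAs whose profile over the 7 samples was most like that of a member were ranked by distance. The distance was the root mean square difference in cycles after each profile's own mean was taken off, over 323 other miRNAs detected in at least 6 samples. Nearest to miR-34a were miR-350 at 0.45 cycles, miR-223 at 0.52 and miR-18a at 0.55, against a median of 2.32. These 3 were higher in macrophages, by 3.86, 4.62 and 4.77 on the log2 scale. The chromosome 9 members lay beyond that median from miR-34a, miR-34b-3p at 2.79 cycles and miR-34c at 2.61.

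Nearest to miR-34b-3p were miR-182 at 0.58 cycles, miR-449a at 0.69 and let-7f* at 0.81, against a median of 1.67. For miR-34c the nearest were miR-582-3p at 0.91, miR-129-3p at 1.19 and miR-466b-3-3p at 1.25, and miR-34b-3p came next at 1.36. With the authors' deposited values miR-582-3p, which had an aorta well at Ct 40, was at rank 34. The nearest 3 of miR-34a and of miR-34b-3p stayed the same miRNAs. A constant per sample cancels in this distance, so only wells later than Ct 35 could change it. For miRNAs without such wells the setting is therefore no check.

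The wider set of miRNAs that p53 is known to raise, by transcription or by processing, held called members in both directions. Of 12 tested, 2 were higher in macrophages, 5 were lower and 5 missed the threshold, with a median difference of -1.02. Over all miRNAs tested, 24.7% were higher, 30.8% were lower and the median was -0.21. The higher ones were miR-34a and miR-15a, of the cell-cycle regulating miR-15/16 family, at 1.24 ± 0.35 SE (limma adjusted p = 0.0191). miR-143 and miR-145, abundant miRNAs of smooth muscle, were lower in macrophages by the most, at -14.62 and -14.54. The others were miR-192 at -1.58, miR-194 at -1.76 and miR-215 at -2.60, which are abundant in liver and gut. miR-15a missed the threshold without macrophage replicate 1 or 2 (adjusted p = 0.0577 and 0.0631 in limma). miR-192 missed the threshold without macrophage replicate 1, at -1.38, and miR-215 without macrophage replicate 1 or aorta replicate 1 or 3, at -2.42 to -1.83. The counts depended on the scaling, as did those of all miRNAs. With the snoRNA pair 1 was higher and 8 were lower, against 7.46% and 53.8% of all tested. With the U6 small nuclear RNA (MammU6) 1 was higher and 3 were lower, against 12.1% and 28.9%. Quantile normalization gave 3 and 4, against 34.3% and 27.5%, and the deposited values gave 1 and 6, against 12.4% and 36.1%. With no scaling none was higher and 8 were lower, against 2.33% and 48.3%.

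Of 5 miRNAs known to target the p53 mRNA itself, 1 was higher, 1 was lower and 3 missed the threshold, with a median of -0.40, against 24.7% higher, 30.8% lower and a median of -0.21 over all miRNAs tested. miR-25 was higher at 1.67 ± 0.51 SE (limma adjusted p = 0.0267) and miR-125b-5p was lower at -1.72 ± 0.59 SE (limma adjusted p = 0.0408). miR-504, detected in 1 macrophage sample and all 4 aortas, was at -4.11 ± 1.70 SE (limma adjusted p = 0.0775). With MammU6 none of the 5 passed, against 12.1% higher and 28.9% lower. With the snoRNA pair and with no scaling none was higher, against 7.46% and 2.33% of all tested. In both settings 4 were lower, against 53.8% and 48.3%, and miR-25 changed sign, at -0.57 and -0.97. With the deposited values none was higher and 1 was lower, against 12.4% and 36.1% of all tested. miR-25 also missed the threshold without macrophage replicate 1 or 2 or aorta replicate 1 or 3, at 1.35 to 1.75. miR-125b-5p missed it without macrophage replicate 2 or 3 or aorta replicate 1, 2 or 3, at -1.86 to -1.19.

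**Figure D5:**
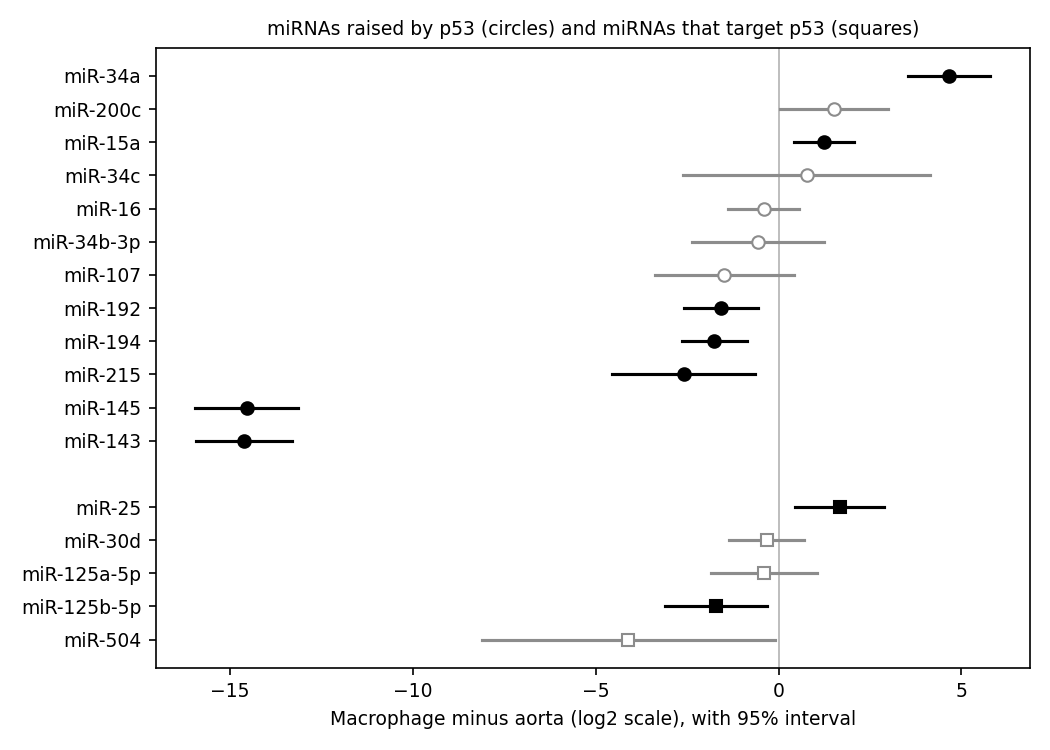
Macrophage minus aorta difference on the log2 scale, relative to the miRNA mean, with its 95% interval for 12 miRNAs raised by p53 (circles) and 5 that target p53 (squares). Filled symbols passed the threshold; miR-34a, at 4.65, is the highest of the 17 and miR-143, at -14.62, the lowest.

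Markers of other cell types, epithelium and nerve, gave these values. Of 7 epithelial miRNAs none was higher, 2 were lower and 5 missed the threshold, against 24.7% higher and 30.8% lower over all tested. The mean over these 7, taken within each sample, was -2.25 to -1.60 in macrophages and -1.996 to -0.89 in aortas. miR-203, a miRNA of skin epithelium, was lower in macrophages at -5.21 ± 0.52 SE, and no macrophage sample and all 4 aortas had miR-205 detected. With the snoRNA pair 5 of the 7 were lower, against 53.8% of all tested. With quantile normalization 3 were higher and 2 lower, against 34.3% and 27.5%. miR-141, of the miR-200 family, was at 2.23 ± 0.95 SE (limma adjusted p = 0.0844). Of 6 nerve miRNAs 1 was higher and 3 were lower relative to the miRNA mean, against 24.7% and 30.8% of all tested. miR-137 was at -3.80 and miR-138 at -3.41. miR-124 was at 8.10, with macrophage replicate 1 at Ct 9.101 and the other macrophage samples at 20.1 and 22.5, against 20.7 to 26.1 in aortas. Without that sample miR-124 was at 4.43 (limma adjusted p = 0.0783). Leaving out aorta 1, 3 or 4 also ended the call, at 6.93 to 8.52. miR-137 missed it without macrophage replicate 2 or 3 or aorta replicate 3, and miR-205 without macrophage replicate 1 or 2. With the snoRNA pair none of the nerve miRNAs was higher and 4 were lower, against 7.46% and 53.8% of all tested. With no scaling none was higher and 3 were lower, against 2.33% and 48.3%. The deposited values gave the same counts, against 12.4% and 36.1%. The mean over the nerve list, taken within each sample, was -1.94 to 0.26 in macrophages and -2.23 to 0.59 in aortas. The 0.26 belongs to macrophage replicate 1 and rests on its miR-124 well at Ct 9.101. The part of these cells in the levels of miR-34b-3p and miR-34c was not tested. Of the 5 measured miRNAs on the list for ciliated epithelium and testis (miR-34b-3p, miR-34c and the 3 miR-449 assays), none passed in either direction relative to the miRNA mean. With the snoRNA pair 3 of them were lower, against 53.8% of all tested, with no scaling 2, against 48.3%, and with the deposited values 1, against 36.1%. These counts are near or below the panel's shares.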

How the data were processed

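Raw and normalized tables of 524 PCR assays in 7 samples were used. The authors' deposited raw values are Ct, a log2 scale if product doubles each cycle, with uncrossed wells at 40. Their deposited normalized values are log2-scale Ct differences. From the values, the mean of the MammU6 and snoRNA202 wells had been subtracted in each sample. Neither the instrument nor preamplification is given in the sources used here. Samples were isolated with a small-RNA kit, per the labels' protocols.

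Wells later than Ct 35 were set to 35. A miRNA had to be detected in 3 or more samples of a group to be tested with limma 3.58.1 in R 4.3.3 (lmFit and eBayes, 2-sided, group only), with Benjamini-Hochberg adjustment and a threshold of 0.05. Tables were made in Python 3.11.15 (numpy 2.4.6, pandas 2.3.3), exact tests with scipy 1.17.1 and plots with matplotlib 3.10.9. The fit was tested on simulated data. Depth was taken as the miRNAs detected and the mean Ct per sample; 7 samples limit the precision.

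Alternatives changed the scaling, limit, filter, block, variance trend or samples. The members and lists were chosen with earlier results of these data known. Named miRNAs were the members, their star strand, the seed family, up to 3 per list by absolute difference and 3 most like each member; miR-15a, miR-192, miR-194 and miR-215 were named after their values were seen.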

Additional observations from a re-analysis of the deposited data

How the results depend on the processing

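miR-34a kept its direction under all 20 alternatives and missed the threshold in 1, no scaling, at 2.01. Alternatives without a filter, with detection in all 7 samples or with a variance trend cannot change the difference itself, which stayed at 4.65. Scaling to snoRNA429 and leaving out replicate 2 of both groups were chosen after the data were seen. Leaving out samples gave 4.37 to 4.92 for miR-34a, -1.03 to 0.42 for miR-34b-3p and -0.21 to 2.45 for miR-34c. miR-34b-3p passed at -2.80 with the snoRNA pair and -3.20 with no scaling, and changed sign at 0.091 with quantile normalization and 0.31 without replicate 2 of both groups. miR-34c missed the threshold in every alternative run and changed sign at -1.47 with the snoRNA pair, -1.87 with no scaling and -0.22 with the deposited values.

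In the order snoRNA pair, MammU6, no scaling and deposited values, miR-34c* was at -1.68, -0.10, -2.08 and -0.44, miR-449b at -1.66, -0.076, -2.06 and -2.50, and miR-449c at -2.13, -0.55, -2.54 and -0.89, against positive values in the main setting. Quantile normalization gave 1.03 for miR-449a and 1.23 for miR-34c*, and miR-449b was at -0.55 with a limit of Ct 38. Leaving out samples gave 0.38 to 0.87 for miR-34c*, -1.10 to 1.48 for miR-449b and -0.37 to 0.504 for miR-449c.

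The number of miRNAs higher in macrophages was 106, and 32 with the snoRNA pair, 52 with MammU6, 10 with no scaling and 53 with deposited values. The number lower was 132, and 231 with the snoRNA pair, 207 with no scaling and 76 with detection required in all 7 samples. With samples left out these were 80 to 112 and 106 to 139. The within-sample differences were 4.31 to 5.72 for miR-34a minus miR-34b-3p, 2.28 to 4.78 for miR-34a minus miR-34c and -2.03 to -0.74 for miR-34b-3p minus miR-34c when 1 sample was left out. In limma the miR-34a pairs, at 5.21 and 3.89, passed on the pairs alone (adjusted p = 0.00234 and 0.0103) and across all miRNAs. The fit on the pairs alone rests on only 3 differences, which depend on each other. The exact permutation test gave an adjusted p of 0.0857 for each miR-34a pair. The cause of the shifts between settings was not tested.

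Same-numbered samples did not deviate together on the scaled level (r = -0.027, 0.068 and 0.019 across 429 miRNAs). The scaling takes off shifts of a whole sample and such pairs are few, so this cannot settle whether the numbers mark a pairing. With the replicate block miR-34a was at 4.38 (limma adjusted p = 0.00515), miR-34b-3p at -0.36 and miR-34c at 0.84, and 91 miRNAs were higher and 121 lower.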

Other observations

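The strands of the miR-34c hairpin did not keep a fixed distance. miR-34c* crossed earlier than miR-34c in every sample, by 2.52, 7.19 and 1.45 cycles in macrophages and by 3.09, 5.66, 3.40 and 3.58 cycles in aortas. Replicate 2 of each group had the widest gap. In macrophage replicate 2 the miR-34c well was the latest of its group and the miR-34c* well the earliest, and in aorta replicate 2 both wells were the latest of their group. The mean gap was 3.72 ± 3.05 cycles (SD, n = 3) in macrophages and 3.93 ± 1.17 cycles (SD, n = 4) in aortas, and the difference of -0.21 did not pass (exact permutation test, 2-sided, p = 0.857, chosen after the data were seen). Ct values of different assays also differ through assay efficiency, so the gap is no ratio of the strands.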
